A study of Mus musculus with 17 samples.

Results

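The genes described here are 32 genes of cholesterol and fatty acid synthesis, taken by symbol from a table of raw counts for 45777 genes in mouse lung. All 32 had a row of their own, and all 32 passed the filter on low counts that left 22052 genes for testing, since the lowest count of any of them in any library was 339. Fatty acids are built from acetyl-CoA by acetyl-CoA carboxylase and fatty acid synthase, and are then given bonds by desaturases and length by elongases. Cholesterol is built from the same acetyl-CoA, first along the mevalonate pathway to farnesyl pyrophosphate and then from squalene through lanosterol to cholesterol. The transcription factors encoded by Srebf1 and Srebf2 drive these enzymes when cell sterol is low, and in the lung the alveolar type 2 cell uses their products for surfactant lipid.

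The mice were wild-type C57BL/6 males, obtained at an age of 6 weeks and kept for a week before treatment. Irradiated mice received a single focal fraction of X-rays to the left lung, of 65 or 75 Gy, and controls received no radiation. Lung tissue was collected after 2 or 6 weeks, which gives 6 groups and 17 libraries of stranded mRNA, with 3 libraries per group and 2 for 65 Gy at 6 weeks. According to the methods, RNA of irradiated mice came from the lesions, so that the dose and the choice of tissue within the lung cannot be told apart. The sources used here do not say that each library was 1 mouse, and p-values therefore measure the spread between these libraries. Levels are given as CPM, the counts of a gene scaled to the depth of its library, and a difference as a log2 fold change with its standard error (SE). In bulk tissue, fewer cells of a type and less RNA per cell cannot be told apart.

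Total counts per library ran from 46764569 to 66797879 around a median of 57608149. The surfactant gene Sftpc, a marker of alveolar type 2 cells, was at 8368 CPM or more in all 17 libraries. Among the 3 controls of 2 weeks, library 3126 was the highest in 16 of the 17 genes of the mevalonate pathway and of the steps from squalene to cholesterol, here called the sterol genes. Its level was from 0.971 to 2.14 times the mean of the other controls of 2 weeks over these genes, with a median of 1.56. Of all 17 libraries it was the highest in 9 of the 17 sterol genes, against 9.12% of all genes tested. Library 3134, of 75 Gy at 2 weeks, was the lowest of its group in 16 of the 17 sterol genes and in 28 of all 32 genes, against 34.4% of all genes tested. Library 3142, of 75 Gy at 6 weeks, was the lowest of its group in 25 of 32 genes, against 29.5%. The counts of calls that rest on libraries 3126, 3134 and 3142 are given below with and without them.

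**Figure D1:**
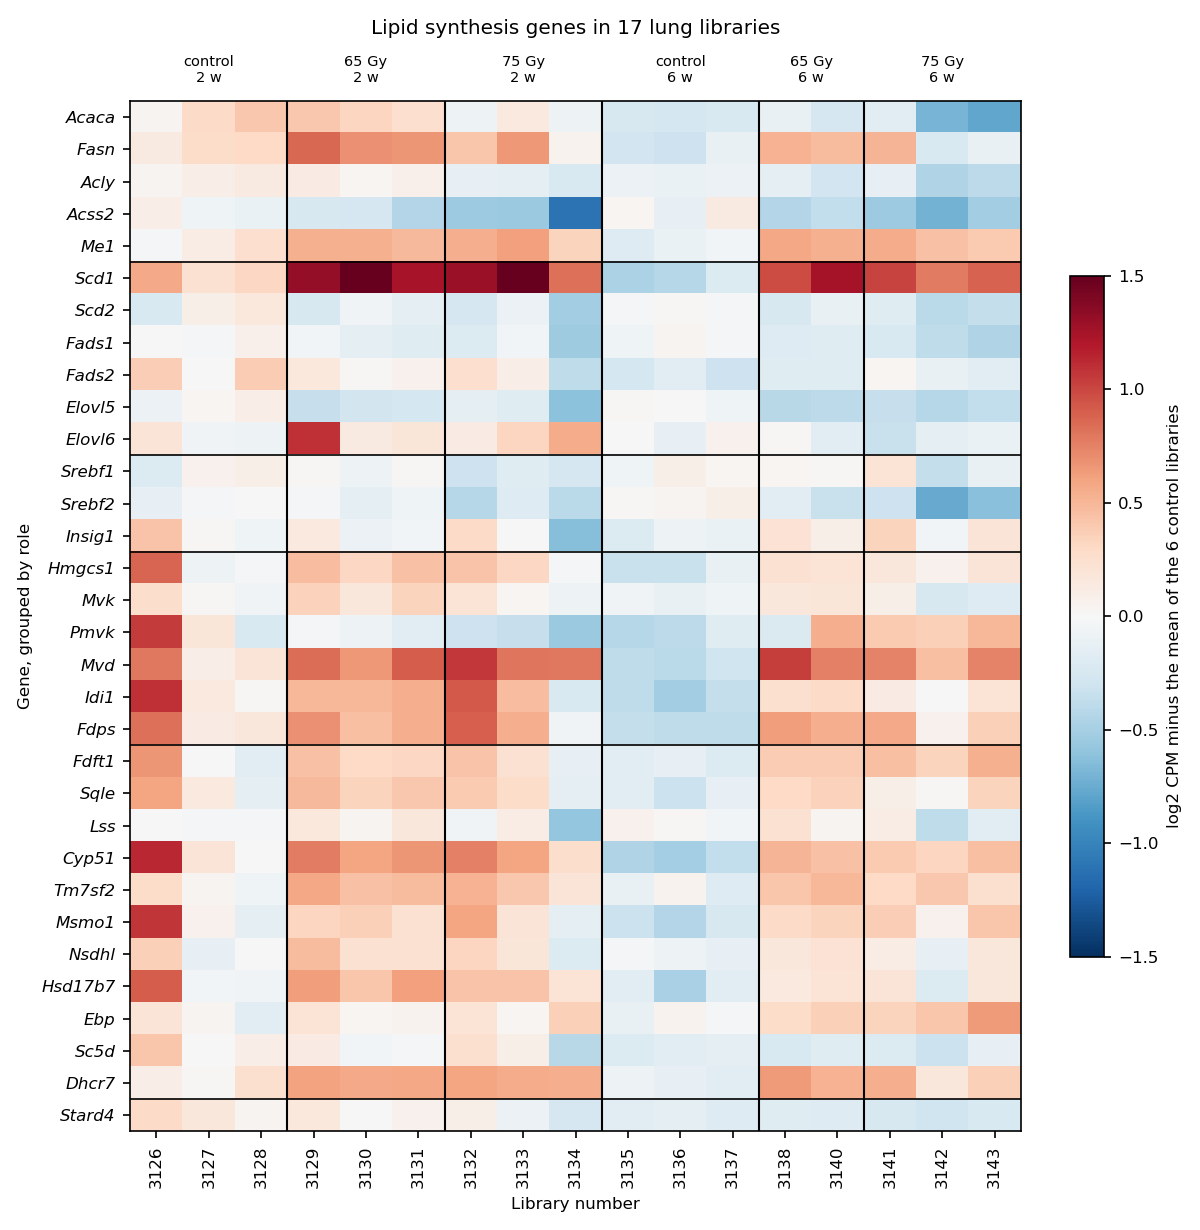
Level of the 32 genes (vertical axis, grouped by role with lines between the groups) in each of the 17 libraries (horizontal axis, by group), as log2 CPM minus the mean of the 6 control libraries, with red above and blue below that mean. Library 3126, at the far left, is red over the sterol genes, as the highest control of 2 weeks in 16 of 17, and the 3 controls of 6 weeks are blue in most of them.

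The promoters of 4 sterol genes are shown, of which Hmgcs1 and Idi1 passed in none of the 4 comparisons with controls. Mvd had the smallest p of the mevalonate genes, Cyp51 and Idi1 had the largest differences between the control groups, and Hmgcs1 was the only one of the 25 genes with a promoter entry that held the searched sterol letters. The sequences are the 250 bases before the start of the gene, 5′ to 3′ on the strand of the gene, from the RefSeq annotation of GRCm38.p6. They lie at chr13:119690101-119690350 (+ strand), chr8:122443423-122443672 (- strand), chr13:8885356-8885605 (+ strand) and chr5:4104698-4104947 (- strand). Capitals mark the CCAAT box, which NF-Y can bind, read as CCAAT or on the other strand as ATTGG, and, in Hmgcs1, the sterol regulatory element TCACNCCAC.
Hmgcs1: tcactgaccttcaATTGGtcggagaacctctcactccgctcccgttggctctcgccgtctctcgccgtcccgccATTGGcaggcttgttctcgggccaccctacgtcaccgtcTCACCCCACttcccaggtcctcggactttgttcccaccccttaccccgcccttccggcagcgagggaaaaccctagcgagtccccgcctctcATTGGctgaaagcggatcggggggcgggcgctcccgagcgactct
Mvd: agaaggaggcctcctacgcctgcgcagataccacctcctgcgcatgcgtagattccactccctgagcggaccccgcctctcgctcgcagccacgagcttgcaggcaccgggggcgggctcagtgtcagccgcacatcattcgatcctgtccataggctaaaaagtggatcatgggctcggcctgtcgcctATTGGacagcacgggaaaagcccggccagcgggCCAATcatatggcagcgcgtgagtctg
Idi1: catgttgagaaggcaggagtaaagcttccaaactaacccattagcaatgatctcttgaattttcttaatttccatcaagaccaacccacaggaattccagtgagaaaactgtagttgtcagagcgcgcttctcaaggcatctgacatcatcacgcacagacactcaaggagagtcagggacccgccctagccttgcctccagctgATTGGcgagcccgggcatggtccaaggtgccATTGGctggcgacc
Cyp51: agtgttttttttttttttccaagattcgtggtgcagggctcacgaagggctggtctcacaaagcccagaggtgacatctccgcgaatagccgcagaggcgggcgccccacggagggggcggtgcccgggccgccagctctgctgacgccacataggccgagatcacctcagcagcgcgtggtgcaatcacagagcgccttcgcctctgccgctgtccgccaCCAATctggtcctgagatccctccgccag

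Of the 32 genes, 25 had an entry in the promoter table, which runs from 250 bases before to 50 after the start. CCAAT, sought on both strands, was present in 22 of 25 (88%), against 41.1% of the 27025 genes of the table and 41.6% of the tested genes with an entry. TCACNCCAC was present in 1 of 25 (4%), Hmgcs1, against 1.44% of the genes of the table and 1.49% of the tested genes. The E-box CACGTG, which reads alike on both strands, was present in 5 of 25 (20%), namely Elovl5, Insig1, Hsd17b7, Sc5d and Dhcr7. It was present in 8.09% of the genes of the table and 10.1% of the tested genes with an entry. These are counts of letters in a window, and the capitals of Hmgcs1 for the 2 motifs do not overlap.

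After 75 Gy, 7 of the 32 genes passed an adjusted p of 0.05 at 2 weeks and 15 at 6 weeks, by the quasi-likelihood test of edgeR with Benjamini-Hochberg adjustment over all genes tested. Of all genes tested, 22.3% and 36% passed. After 65 Gy, 4 genes passed at 2 weeks, against 11% of all genes, and 9 at 6 weeks, against 14.7%. At 2 weeks after 75 Gy, the share of the set was thus near that of all genes. With only the compared groups in the edgeR model, 0 of the 32 passed at 2 weeks after 75 Gy, against 5.85% of all genes, with adjusted p of 0.111 for Me1, 0.0836 for Scd1 and 0.0725 for Dhcr7, and 21 passed at 6 weeks after 65 Gy, against 31.3%. Leaving out 1 library gave 5 to 10 calls after 75 Gy at 2 weeks and 10 to 16 at 6 weeks. After 65 Gy it gave 3 to 9 at 2 weeks, with 9 without library 3126, and 4 to 7 at 6 weeks, with 4 without library 3138 or 3140. By direction, 4 genes were higher and 3 lower at 2 weeks after 75 Gy, against 11.8% and 10.5% of all genes. At 6 weeks after 75 Gy, 10 were higher and 5 lower, against 18% of all genes in each direction. After 65 Gy, 4 were higher and 0 lower at 2 weeks (6.7% and 4.29% of all genes), where 2 were lower at an unadjusted p under 0.05, 0 by edgeR's exact test and 1 by DESeq2. At 6 weeks after 65 Gy, 8 were higher and 1 was lower (7.66% and 7.01%). Both doses were compared with the same controls of each time, so their calls are not independent.

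A differentially expressed gene (DEG) also had to change by at least 1 on the log2 scale. Scd1 and Mvd were the DEGs of the set at 6 weeks, both higher and at both doses, which is 2 of 32 genes against 10.4% of all genes after 75 Gy and 5.28% after 65 Gy. At 2 weeks the set held 0 DEGs by edgeR's quasi-likelihood test, by its exact test and by DESeq2, against 7.74% of all genes after 75 Gy and 4.35% after 65 Gy. An unadjusted p under 0.05 was then reached by 13 genes after 75 Gy and 9 after 65 Gy, against 35% and 25.4% of all genes. The irradiated and control libraries did not overlap in 10 genes at 2 weeks and 22 at 6 weeks after 75 Gy, against 30.2% and 57.1% of all genes. After 65 Gy this held for 9 genes at 2 weeks and 24 at 6 weeks, against 29.4% and 56.3%. The median log2 fold change of the 32 genes was -0.06 and 0.31 at 2 and 6 weeks after 75 Gy, and 0.08 and 0.31 after 65 Gy, with medians of all genes between -0.01 and 0.04. Me1, Scd1 and Dhcr7 were higher in all 4 comparisons with controls, and 16 of the 32 genes passed the test in none.

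**Figure D2:**
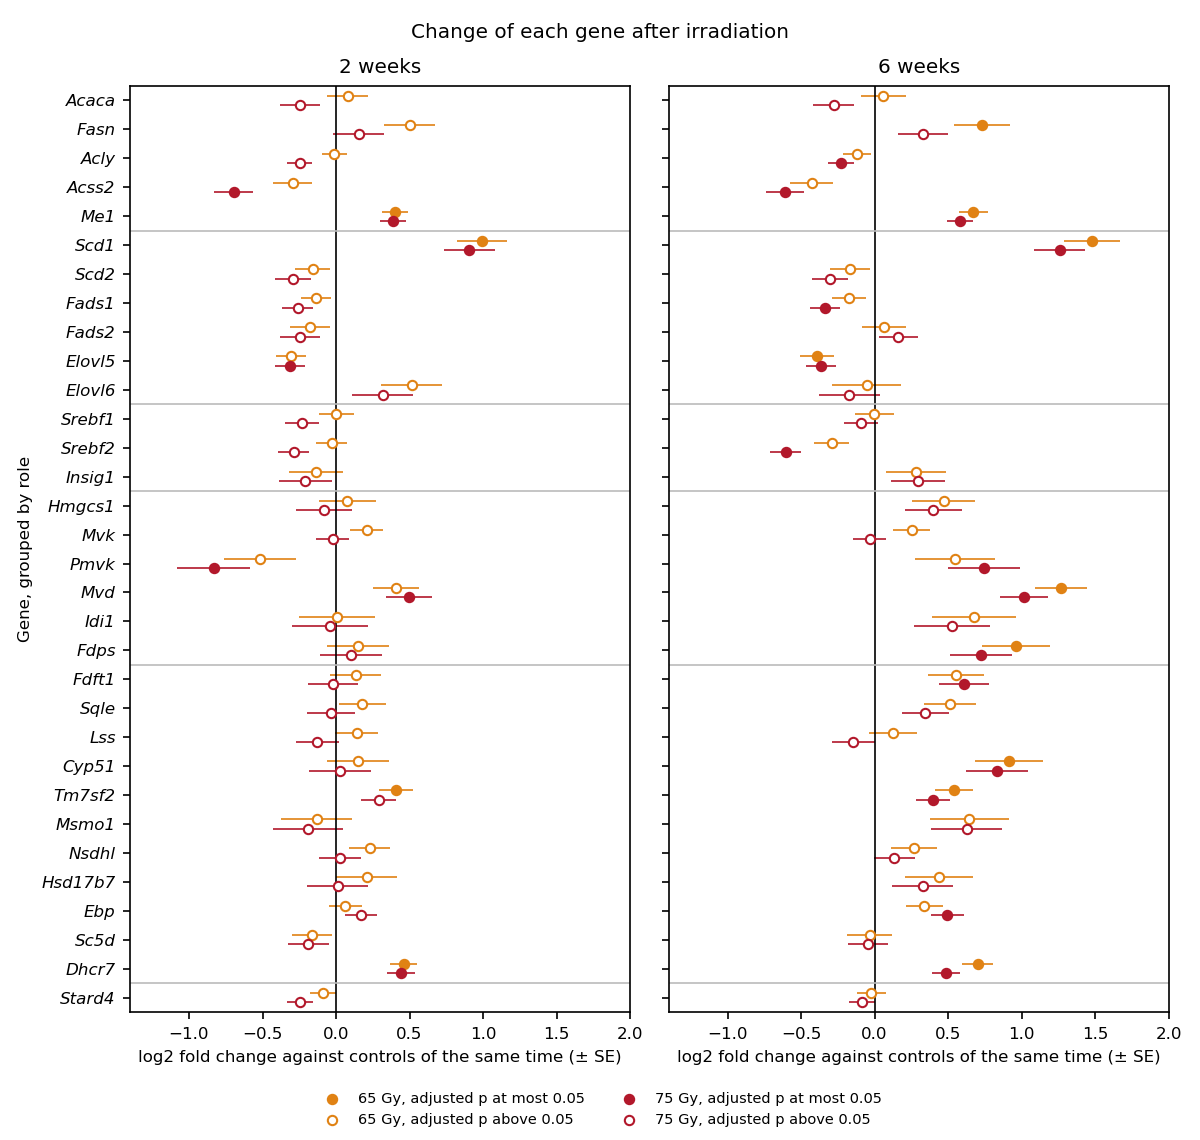
Log2 fold change against the controls of the same time (horizontal axis, points with SE bars) for each gene (vertical axis, grouped by role), at 2 weeks on the left and 6 weeks on the right, with 65 Gy in orange, 75 Gy in red and filled points for an adjusted p of at most 0.05. Scd1 lies farthest to the right at both times, between 0.91 and 1.48, and 15 of the 17 sterol genes after 75 Gy and 16 after 65 Gy lie farther right at 6 than at 2 weeks.

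Among the 5 genes of fatty acid synthesis and its supply of carbon and NADPH, Me1 rose and Acss2 fell. Me1 encodes cytosolic malic enzyme, a source of NADPH. It lies at chr9:86581363-86695914 of GRCm38.p6. In the controls it was at 89.0, 98.4 and 108 CPM at 2 weeks and at 79.5, 84.7 and 88.0 CPM at 6 weeks. After 65 Gy it was at 131, 132 and 127 CPM at 2 weeks and at 136 and 132 CPM at 6 weeks. At 75 Gy it was at 132, 139 and 115 CPM at 2 weeks and at 134, 124 and 119 CPM at 6 weeks. Every irradiated library was above every control, of either time. The log2 fold changes at 2 weeks were 0.39 after 75 Gy (SE 0.09, edgeR adjusted p = 0.00594) and 0.40 after 65 Gy (SE 0.09, adjusted p = 0.00991). At 6 weeks they were 0.58 (SE 0.09, adjusted p = 0.000249) and 0.67 (SE 0.10, adjusted p = 0.000519). Of the 100-base stretches in the transcripts of Me1, 12.3% also occur in other genes, among them Gm7049. How far such sharing affects its count was not tested.

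Acss2, which makes acetyl-CoA from acetate, was at 33.0 to 37.8 CPM in the controls of 2 weeks and at 16.3 to 24.2 CPM in the 75 Gy libraries of 2 weeks, with library 3134 the lowest. The log2 fold change was -0.70 at 2 weeks (SE 0.13, edgeR adjusted p = 0.00175) and -0.61 at 6 weeks (SE 0.13, adjusted p = 0.00245) after 75 Gy. After 65 Gy its values of -0.30 and -0.43 did not pass, although the groups did not overlap at either time. Acly, which makes acetyl-CoA from citrate, fell by 0.23 at 6 weeks after 75 Gy (adjusted p = 0.049), a call that ended in 5 of the 6 fits without a library of that comparison, with adjusted p up to 0.239, and held without library 3141. Fasn, the fatty acid synthase, was at 1475, 1306 and 1283 CPM in the 65 Gy libraries of 2 weeks, against 890 to 1001 CPM in the controls. Its log2 fold change after 65 Gy was 0.50 at 2 weeks (SE 0.17, adjusted p = 0.0765) and 0.73 at 6 weeks (SE 0.19, adjusted p = 0.0196). The 6-week call of Fasn ended without library 3135, 3136, 3138 or 3140, with adjusted p from 0.0629 to 0.122. After 75 Gy Fasn was at 0.15 and 0.33. Acaca, the carboxylase that starts the pathway, had values between -0.28 and 0.08 and passed in no comparison with controls, with 23.7% of its stretches shared with other genes. Without library 3141 it was lower at 6 weeks after 75 Gy, by a log2 fold change of -0.50 (adjusted p = 0.0021), against -0.28 with it.

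Of the 6 desaturases and elongases, Scd1 rose and Elovl5 and Fads1 fell. Scd1 encodes stearoyl-CoA desaturase, which makes oleate and palmitoleate, and lies at chr19:44394450-44407709. In the controls of 2 weeks it was at 3993, 3150 and 3327 CPM, and in those of 6 weeks at 1938, 2009 and 2334 CPM. After 65 Gy it was at 6692, 7801 and 6344 CPM at 2 weeks and at 5295 and 6367 CPM at 6 weeks. After 75 Gy it was at 6623, 8232 and 4771 CPM at 2 weeks and at 5448, 4602 and 4970 CPM at 6 weeks. Every irradiated library was above every control of its time, and library 3134 was the lowest irradiated library of 2 weeks. At 2 weeks Scd1 was 1.87-fold higher after 75 Gy (log2 0.91, SE 0.17, edgeR adjusted p = 0.00184) and 1.99-fold higher after 65 Gy (log2 0.99, SE 0.17, adjusted p = 0.00192). At 6 weeks it was 2.39-fold higher (log2 1.26, SE 0.17, adjusted p = 0.000114) and 2.79-fold higher (log2 1.48, SE 0.19, adjusted p = 0.000178). Only 2.58% of its stretches are shared with other genes, among them Scd2 and Scd3.

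Scd2, the closest relative in the set, did not rise with Scd1. It was at 1019 to 1335 CPM in the controls of 2 weeks and at 831 to 1154 CPM in the irradiated libraries of that time. Its log2 fold changes lay between -0.30 and -0.16, none of them past the test with all libraries. Elovl5, an elongase of polyunsaturated fatty acids, was at 288, 313 and 326 CPM in the controls of 2 weeks and at 277, 269 and 199 CPM after 75 Gy. It fell by 0.32 at 2 weeks (SE 0.10, adjusted p = 0.0387) and by 0.37 at 6 weeks after 75 Gy (SE 0.10, adjusted p = 0.0126). The 2-week call ended without library 3127, 3128 or 3134, and the 6-week call without library 3142 (adjusted p = 0.0576). After 65 Gy its value was -0.31 at 2 weeks and it fell by 0.39 at 6 weeks (SE 0.12, adjusted p = 0.0349), a call that ended whichever library of that comparison was left out. Fads1, a desaturase of polyunsaturated fatty acids, fell by 0.34 at 6 weeks after 75 Gy (SE 0.10, adjusted p = 0.0193), a call that ended without library 3136, 3142 or 3143, with adjusted p from 0.0656 to 0.107. Its neighbour Fads2 passed in no comparison with controls. Elovl6 was at 18.05 CPM in library 3129, of 65 Gy at 2 weeks, and at 12.5 CPM or less in every other library. Ucp1, the defining gene of brown fat, was at 18.03 CPM in library 3129 and at 0.30 CPM or less in the other 16, and its part in the level of Elovl6 was not tested. Without 3129 the log2 fold change of Elovl6 after 65 Gy at 2 weeks was 0.13, against 0.52 with it.

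Of the 3 regulators, Srebf2 fell at 6 weeks after 75 Gy, and the other two did not pass. Srebf2, the factor named for the sterol genes, lies at chr15:82147269-82205379. It was at 175, 186 and 190 CPM in the controls of 2 weeks and at 192, 196 and 203 CPM in those of 6 weeks. After 75 Gy it was at 141, 167 and 144 CPM at 2 weeks and at 154, 113 and 123 CPM at 6 weeks. All 75 Gy libraries were below all controls. The log2 fold change was -0.29 at 2 weeks (SE 0.11, edgeR adjusted p = 0.0633) and -0.60 at 6 weeks (SE 0.11, adjusted p = 0.000625). After 65 Gy the libraries of 2 weeks, at 187, 172 and 182 CPM, lay among the controls, and those of 6 weeks, at 171 and 151 CPM, lay below them, with values of -0.03 and -0.29 that did not pass. Without library 3133 Srebf2 also passed at 2 weeks after 75 Gy (adjusted p = 0.0315). Srebf1 had values between -0.23 and 0.00, and Insig1, which holds the sterol-sensing complex in the endoplasmic reticulum, between -0.21 and 0.30. At 6 weeks the libraries of Insig1, at 88.4 to 96.8 CPM after 65 Gy and 80.8 to 105 CPM after 75 Gy, lay above the controls, at 72.3 to 78.9 CPM, with log2 fold changes of 0.28 and 0.30 that did not pass. Insig1 was also high in library 3126, at 111.6 CPM, and low in library 3134, at 53.5 CPM.

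In the mevalonate pathway, 3 of 6 genes were higher at 6 weeks after 75 Gy and 2 of 6 after 65 Gy, against 18% and 7.66% of all genes. Mvd encodes the decarboxylase that makes isopentenyl pyrophosphate, and lies at chr8:122433596-122443422, after the promoter printed above. In the controls it was at 22.4, 13.9 and 14.8 CPM at 2 weeks, the first of these in library 3126, and at 9.93, 9.79 and 10.5 CPM at 6 weeks. The 65 Gy libraries were at 23.2, 20.4 and 24.3 CPM at 2 weeks and at 26.7 and 21.8 CPM at 6 weeks. The 75 Gy libraries were at 27.1, 22.7 and 22.4 CPM at 2 weeks and at 21.8, 17.7 and 21.7 CPM at 6 weeks. At 6 weeks every irradiated library was well above the controls. At 2 weeks the 65 Gy group reached below library 3126, and the lowest 75 Gy library stood level with it. The log2 fold change was 0.50 at 2 weeks after 75 Gy (SE 0.16, edgeR adjusted p = 0.0353) and 0.41 after 65 Gy (SE 0.16, adjusted p = 0.116). The call at 2 weeks after 75 Gy ended without library 3127, 3128, 3132 or 3134, with adjusted p from 0.0509 to 0.152, and without library 3126 Mvd passed after 65 Gy as well (adjusted p = 0.00656). At 6 weeks it was 1.02 (SE 0.16, adjusted p = 0.00031), which is 2.02-fold, and 1.27 (SE 0.18, adjusted p = 0.000345), which is 2.41-fold.

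Fdps, farnesyl pyrophosphate synthase, was higher at 6 weeks, by 0.72 after 75 Gy (SE 0.21, adjusted p = 0.0155) and by 0.96 after 65 Gy (SE 0.23, adjusted p = 0.0132). Its call after 75 Gy ended without library 3141 (adjusted p = 0.0721) and that after 65 Gy without library 3138 or 3140 (0.106 and 0.0696). A share of 21.4% of its stretches also occurs in other genes. Hmgcs1, which makes HMG-CoA, and Idi1, an isomerase, were above all controls at 6 weeks in both irradiated groups. Their log2 fold changes of 0.40 and 0.53 after 75 Gy and of 0.47 and 0.68 after 65 Gy did not pass. Of the stretches of Idi1, 15.8% also occur in other genes. Mvk, mevalonate kinase, had values between -0.03 and 0.25 and did not pass.

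Pmvk, phosphomevalonate kinase, was the only gene of the set that passed in both directions, and was chosen for its values after they were seen. In the controls it was at 64.9, 35.5 and 26.8 CPM at 2 weeks, with library 3126 again the highest, and at 23.3, 23.8 and 27.7 CPM at 6 weeks. The 65 Gy libraries had 30.9, 29.8 and 28.01 CPM at 2 weeks and at 27.0 and 45.9 CPM at 6 weeks. The 75 Gy libraries had 25.4, 24.7 and 21.3 CPM at 2 weeks and at 41.1, 40.2 and 44.2 CPM at 6 weeks. The 75 Gy libraries thus lay below the controls at 2 weeks and above them at 6 weeks. The log2 fold change was -0.83 at 2 weeks (SE 0.25, edgeR adjusted p = 0.0242) and 0.75 at 6 weeks (SE 0.25, adjusted p = 0.0278). Without library 3126 the value of Pmvk at 2 weeks was -0.38 (adjusted p = 0.133), and without library 3134 it was -0.76 (adjusted p = 0.0868). The 6-week call ended in 5 of the 6 fits that left out a library of that comparison, with adjusted p up to 0.0835. None of the stretches of Pmvk is shared with another gene.

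**Figure D3:**
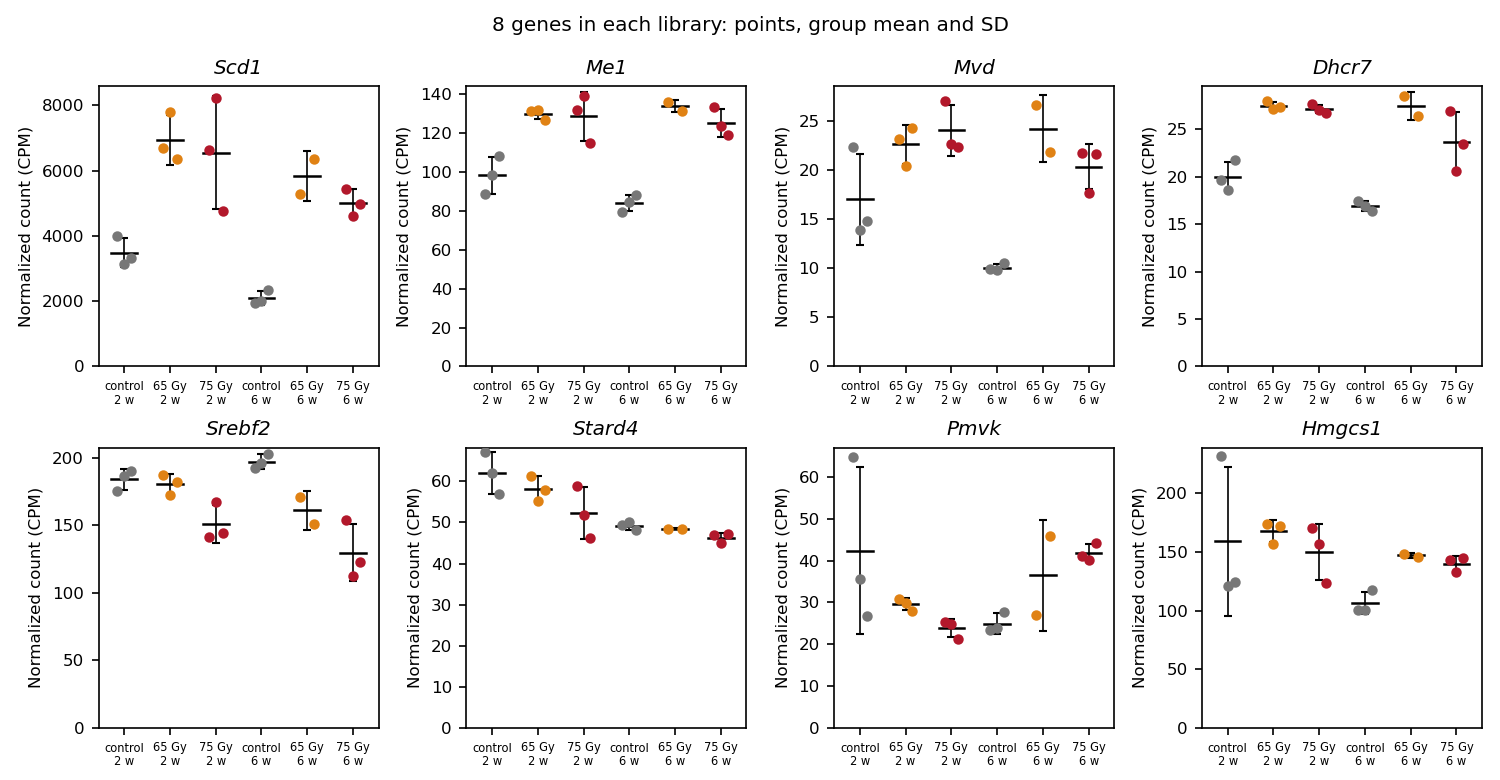
Normalized count in CPM (vertical axis, from 0) of 8 genes in each library, by group (horizontal axis), with controls in grey, 65 Gy in orange and 75 Gy in red, a line for the group mean and bars for the SD (n = 3, and n = 2 for 65 Gy at 6 weeks). Scd1, Me1 and Dhcr7 lie above the controls of their time in every irradiated library, while Mvd, Pmvk and Hmgcs1 have 1 high control of 2 weeks, library 3126.

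Of the 11 genes from squalene to cholesterol, 5 were higher at 6 weeks after 75 Gy and 3 after 65 Gy, against 18% and 7.66% of all genes, and Dhcr7 was higher throughout. Dhcr7 encodes the reductase that makes cholesterol from 7-dehydrocholesterol and lies at chr7:143823167-143848410. In the controls it was at 19.6, 18.6 and 21.7 CPM at 2 weeks and at 17.4, 16.9 and 16.4 CPM at 6 weeks. After 65 Gy it was at 27.9, 27.2 and 27.4 CPM at 2 weeks and at 28.5 and 26.4 CPM at 6 weeks. After 75 Gy it was at 27.6, 27.0 and 26.8 CPM at 2 weeks and at 26.9, 20.6 and 23.5 CPM at 6 weeks. Each irradiated library was above the controls of its time, and library 3126 did not stand apart here. The log2 fold changes at 2 weeks were 0.44 after 75 Gy (SE 0.09, edgeR adjusted p = 0.00384) and 0.46 after 65 Gy (SE 0.09, adjusted p = 0.00609). At 6 weeks they were 0.49 (SE 0.09, adjusted p = 0.00126) and 0.70 (SE 0.10, adjusted p = 0.00059). Its calls against controls held in every fit that left out 1 library, as did those of Me1 and Scd1, while all 3 calls at 2 weeks after 75 Gy ended with only the compared groups in the model.

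Cyp51, lanosterol demethylase, was higher by 0.83 at 6 weeks after 75 Gy (SE 0.21, adjusted p = 0.00728) and by 0.91 after 65 Gy (SE 0.23, adjusted p = 0.0176). At 2 weeks its values were 0.02 and 0.15. Tm7sf2, a sterol reductase, was higher by 0.40 at 6 weeks after 75 Gy (adjusted p = 0.0161), by 0.54 after 65 Gy (adjusted p = 0.0128) and by 0.41 at 2 weeks after 65 Gy (adjusted p = 0.0372). Its 2-week call was lost in 5 of the 6 fits without a library of that comparison, with adjusted p up to 0.133, and 7.92% of its stretches are shared with Vps51. Its 6-week calls also ended without single libraries, 3135, 3137 or 3142 after 75 Gy and 3137, 3138 or 3140 after 65 Gy, with adjusted p up to 0.11. Ebp, a sterol isomerase, was higher at 6 weeks after 75 Gy by 0.49 (SE 0.11, adjusted p = 0.00349), and Fdft1, squalene synthase, by 0.61 (SE 0.17, adjusted p = 0.0131), which ended without library 3143 (adjusted p = 0.0507). On the opposite strand, 16% of the stretches of Fdft1 occur in other genes, and the strand setting of the authors' counting is not given in the sources used here. Sqle, Msmo1, Nsdhl and Hsd17b7 had values from 0.13 to 0.64 at 6 weeks, and Lss and Sc5d from -0.14 to 0.12, none of them past the test. The 6-week calls after 65 Gy rest on 2 libraries, and those of Cyp51, Fdps, Fasn, Tm7sf2 and Elovl5 ended when library 3138 or library 3140 was left out. For Cyp51 the adjusted p was then 0.127 and 0.0862, and without library 3135 or 3136 it was 0.0519 and 0.0587.

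Stard4, which carries sterol between membranes, was at 67.1, 62.0 and 56.8 CPM in the controls of 2 weeks and at 49.4, 50.2 and 48.1 CPM in those of 6 weeks. After 65 Gy it was at 61.4, 55.2 and 57.9 CPM and then at 48.5 and 48.4 CPM. After 75 Gy it was at 58.8, 51.9 and 46.2 CPM at 2 weeks and at 46.9, 44.9 and 47.1 CPM at 6 weeks. The libraries of 6 weeks lay below those of 2 weeks in the controls and after 65 Gy, and Stard4 passed in no comparison with controls. The value farthest from 0 was -0.25 at 2 weeks after 75 Gy (SE 0.09, edgeR adjusted p = 0.0602), which passed without library 3128 (0.0408) or 3132 (0.012).

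The counts of sterol genes called at 2 weeks moved with the libraries that stand apart. With all libraries, 2 of the 17 sterol genes were higher and 1 was lower after 75 Gy at 2 weeks. Of all genes, 11.8% were higher and 10.5% lower. The median log2 fold change of the 17 was -0.02. After 65 Gy 2 were higher, against 6.7% of all genes, with a median of 0.15. Without library 3126, 5 were higher after 75 Gy and 7 after 65 Gy, against 14.9% and 6.97% of all genes then tested, with medians of 0.29 and 0.42. Without libraries 3126 and 3134 together, 10 were higher after 75 Gy and 11 after 65 Gy, against 12.3% and 9.85% of all genes, with a median of 0.42 at both doses. These libraries were chosen for their levels of the sterol genes after the values were seen. Leaving out a high control by construction raises the fold changes of most of these genes at both doses. Leaving out a low irradiated library does so after 75 Gy only. After 65 Gy the median stayed at 0.42 when library 3134 was left out as well, while the genes called higher went from 7 to 11. The share of all genes then went from 6.97% to 9.85%. The values without these libraries are therefore a description. At 6 weeks, with all libraries, 8 sterol genes were higher after 75 Gy and 5 after 65 Gy, with medians of 0.49 and 0.54. Of all genes, 18% and 7.66% were higher. Without library 3142, 6 were higher after 75 Gy, against 13.2% of all genes, with a median of 0.53. With all libraries, every irradiated library was above every control of its time in 2 sterol genes at 2 weeks after 75 Gy and 3 after 65 Gy, against 15.5% and 15.9% of all genes. At 6 weeks this held for 12 and 14 of the 17, against 29.4% and 28.2%.

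**Figure D4:**
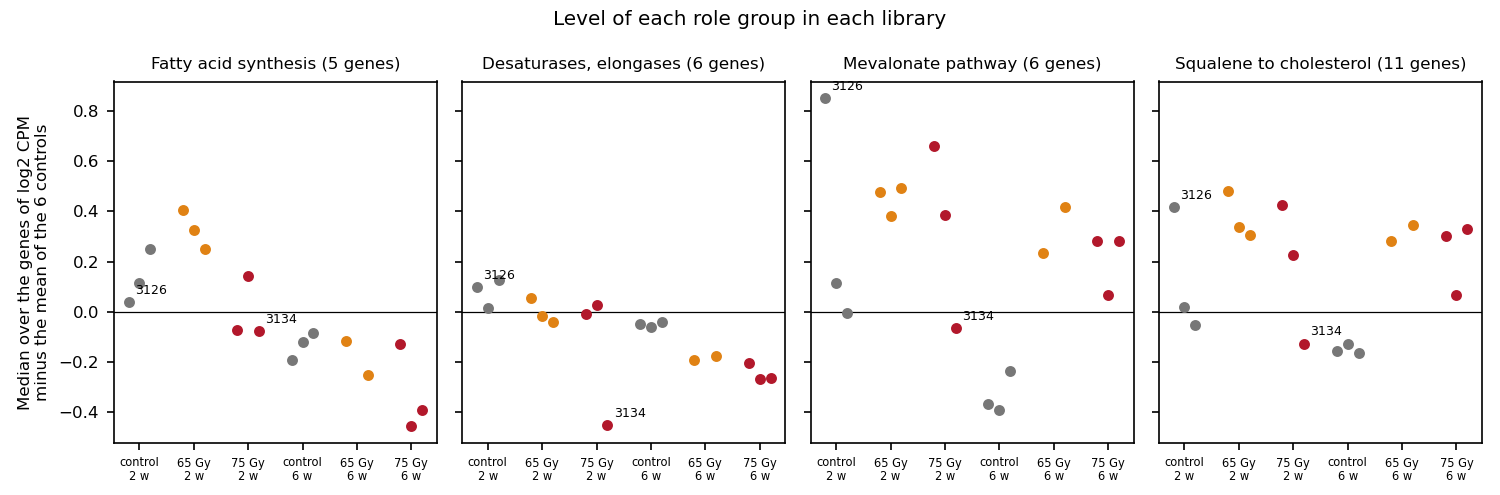
Median over the genes of a role of log2 CPM minus the mean of the 6 controls (vertical axis), 1 point per library, by group (horizontal axis), with controls in grey, 65 Gy in orange and 75 Gy in red, and libraries 3126 and 3134 marked. In the mevalonate panel library 3126 is at 0.85 and the other controls of 2 weeks at 0.11 and -0.01, while the controls of 6 weeks lie between -0.39 and -0.24, below all irradiated libraries.

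The controls themselves differed between the times. From 2 to 6 weeks, Scd1, Mvd and Cyp51 were lower at an adjusted p of 0.05, which is 3 of 32 genes against 1.02% of all genes. An unadjusted p under 0.05 with a lower value was reached by 18 genes, against 8.19% of all genes, and in 18 genes every control of 6 weeks was below every control of 2 weeks, against 11.2%. Only 4 of 32 genes had a value above 0, against 51.1% of all genes, and the median of the 32 was -0.30, with -0.42 for the sterol genes. Cyp51 was at 92.0, 48.1 and 42.1 CPM in the controls of 2 weeks and at 30.6, 29.4 and 32.6 CPM in those of 6 weeks. Its log2 fold change was -0.98 (SE 0.21, edgeR adjusted p = 0.0342), against -0.76 for Mvd (SE 0.16, adjusted p = 0.0302) and -0.74 for Scd1 (SE 0.17, adjusted p = 0.0434). Without library 3126 all 3 kept their sign, at -0.55, -0.51 and -0.63, and 0 genes passed (adjusted p = 0.0574, 0.0933 and 0.153). Leaving out any 1 of the 3 controls of 6 weeks also ended all 3 calls. That of Scd1 ended without library 3127 or 3128 too. By edgeR's exact test and DESeq2, 7 and 9 genes were called, all of them lower, against 1.71% and 2.56% of all genes.

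The summed CPM of the 6 mevalonate genes was 285.5 to 532 in the controls of 2 weeks and 220 to 247 in those of 6 weeks. It was 361 to 395 and then 352 to 362 after 65 Gy, and 271 to 425 and then 304 to 347 after 75 Gy. For the 11 genes from squalene to cholesterol it was 388 to 612 and then 345 to 357 in the controls, 480 to 527 and then 474 to 475 after 65 Gy, and 382 to 526 and then 411 to 484 after 75 Gy. The controls of 6 weeks lay below those of 2 weeks in both lists. After 65 Gy the ranges met within 1 CPM in the first list and did not overlap in the other, and after 75 Gy they overlapped in both. The irradiated groups were not tested between the times. Of 13 genes of the circadian clock, 5 were higher and 3 lower in the controls of 6 weeks than in those of 2 weeks. Of all genes, 0.612% were higher and 1.02% lower. Arntl was at 33.7 to 42.9 CPM and then at 6.75 to 7.59 CPM (log2 -2.40, SE 0.13, adjusted p = 1.87e-07). The output gene Dbp was at 4.87, 13.8 and 28.9 CPM, the lowest in library 3126, and then at 142.6 to 174.5 CPM. The summed level of the list was 571 to 916 CPM in the controls of 2 weeks, with 571 in library 3126, and 1651 to 1816 CPM in those of 6 weeks. At 6 weeks the irradiated libraries, at 1063 to 1192 CPM, lay below the controls. Then 4 clock genes were lower and 1 higher after 75 Gy, against 18% of all genes in each direction. After 65 Gy, 1 was higher, against 7.66%. At 2 weeks, 5 were lower after 75 Gy and 2 after 65 Gy, against 10.5% and 4.29% of all genes. The part of the clock genes in the levels of the sterol genes was not tested.

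Whether the effect of a dose differed between the times was tested as a difference of differences. After 75 Gy, 0 of the 32 genes passed by edgeR's quasi-likelihood test, against 0.299% of all genes, and 1 by DESeq2, against 3.21%. In edgeR, 6 were higher at an unadjusted p under 0.05, against 7.27% of all genes. After 65 Gy, 0 passed by edgeR, against 0.0136% of all genes, and 0 by DESeq2, against 0.512%. In edgeR, 5 were then higher at an unadjusted p under 0.05, against 4.28%. A larger value at 6 than at 2 weeks was seen in 24 genes after 75 Gy and 22 after 65 Gy, against 49.7% and 49% of all genes. Among the sterol genes this was 15 and 16 of 17, with medians of 0.38 and 0.34 on the log2 scale. Without library 3126 it was 13 and 13 of 17, with a median of 0.14 in both, and without libraries 3126 and 3134 together it was 9 and 12 of 17, with medians of 0.02 and 0.13. After 75 Gy it was 13 of 17 without library 3134, with a median of 0.32, and 17 of 17 without library 3142, with a median of 0.45. Library 3142 was the lowest of its group in 15 of the 17 sterol genes, so leaving it out by construction raises most of these values. Pmvk had the largest value, 1.58 after 75 Gy (SE 0.35, adjusted p = 0.0753). It passed by DESeq2 and, in edgeR, without library 3128 (adjusted p = 0.019). In edgeR without library 3126, the highest control of 2 weeks for Pmvk, 0 of the 32 genes passed. The 2-week value of Pmvk after 75 Gy was then -0.38, against -0.83 with all libraries. For Mvd the difference was 0.52 after 75 Gy (95% interval 0.04 to 0.998, adjusted p = 0.281) and 0.86 after 65 Gy (0.35 to 1.36, adjusted p = 0.371), and for Cyp51 0.81 (0.17 to 1.45) and 0.77 (0.10 to 1.44).

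Between the doses, 0 genes of the set passed at 2 weeks and 0 at 6 weeks, by edgeR's quasi-likelihood test, its exact test and DESeq2. By the quasi-likelihood test 0% of all genes passed at each time. The exact test called 0.0408% of all genes at 2 weeks and 0.059% at 6 weeks, and DESeq2 0.068% and 0.0771%. Unadjusted p under 0.05 with the lower level after 75 Gy was reached by 4 genes at 2 weeks, namely Acaca, Acly, Acss2 and Srebf2, and by 3 at 6 weeks, namely Acaca, Srebf2 and Mvk. Of all genes, 3.32% and 3.89% did so. Values above 0, that is higher after 75 than after 65 Gy, were seen in 2 of 32 genes at 2 weeks and 6 at 6 weeks, against 50.3% and 51.7% of all genes. The 75 Gy libraries were all below the 65 Gy libraries in 7 genes at 2 weeks and 8 at 6 weeks, against 5.95% and 15.3% of all genes. The median log2 fold change was -0.14 and -0.12, and at 2 weeks it was -0.03 without library 3134, with 12 of 32 genes then above 0. At 6 weeks it was -0.09 without library 3142, with 9 of 32 genes above 0. For Srebf2 the difference was -0.26 at 2 weeks (95% interval -0.48 to -0.03) and -0.31 at 6 weeks (-0.56 to -0.06). For Acss2 at 2 weeks it was -0.40 (-0.68 to -0.12, adjusted p = 0.693). Over the 32 genes, the lowest and highest bounds of any interval were -0.84 and 0.50 at 2 weeks, and the median SE was 0.139.

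Other genes of the pathways, from lists chosen like the set with earlier results of these data known, are given by the same counts. Of 10 genes of LXR signalling and efflux, 6 were higher after 75 Gy at each time, against 11.8% of all genes at 2 weeks and 18% at 6 weeks. After 65 Gy 4 and 5 were higher at 2 and 6 weeks, against 6.7% and 7.66%. The median of the list lay between 0.36 and 0.55 on the log2 scale in the 4 comparisons. Apoe, the apolipoprotein of macrophage efflux, was at 457, 379 and 530 CPM in the controls of 2 weeks and at 792, 1915 and 2336 CPM after 75 Gy. Its log2 fold change was 1.88 then (SE 0.27, adjusted p = 0.000287) and 2.23 at 6 weeks (SE 0.28, adjusted p = 5.12e-05). Ch25h, which makes 25-hydroxycholesterol, was higher by 1.80 and 1.82 after 75 Gy and by 1.19 and 1.31 after 65 Gy. Of 14 other genes of sterol synthesis, uptake and SREBP processing, 2 were higher and 3 lower at 2 weeks, and 3 higher and 2 lower at 6 weeks, after 75 Gy. After 65 Gy, 2 were higher and 2 lower at 2 weeks and 4 higher and 2 lower at 6 weeks. Of all genes, 11.8% were higher and 10.5% lower at 2 weeks after 75 Gy, and 18% in each direction at 6 weeks. The shares after 65 Gy were 6.7% and 4.29% at 2 weeks and 7.66% and 7.01% at 6 weeks. Npc2, which hands cholesterol out of lysosomes, was higher in all 4 comparisons, by 0.80 to 1.09, and Soat1, which esterifies cholesterol, by 0.43 to 0.52. Lbr, a sterol reductase of the nuclear envelope, was lower in all 4, by values from -0.55 to -0.47. Of 17 other genes of fatty acid synthesis and esterification, 2 were higher and 2 lower at 2 weeks and 5 higher and 3 lower at 6 weeks after 75 Gy, and 1 and 2 were higher after 65 Gy. The shares of all genes are those given with the 14 genes. Slc25a1, the mitochondrial citrate carrier, was higher in all 4, by 0.33 to 0.51.

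Marker lists are given by the same counts. Of all genes, 11.8% were higher and 10.5% lower at 2 weeks after 75 Gy, and 18% in each direction at 6 weeks. After 65 Gy the shares were 6.7% and 4.29% at 2 weeks and 7.66% and 7.01% at 6 weeks. Some counts lie near the share of all genes, such as those of alveolar type 2 and airway secretory genes at 6 weeks after 75 Gy. Of 10 genes of lipid-laden macrophages, 9 were higher in each of the 4 comparisons with controls. At 2 weeks 1 was lower, with a log2 fold change of -0.97 after 75 Gy and -1.11 after 65 Gy. At 6 weeks the lowest value of the list was -0.63 after 75 Gy and -0.62 after 65 Gy, not past the test. The summed level of these genes was 2446 to 4267 CPM in the controls, the highest in library 3126, and 5302 to 8329 CPM in the irradiated libraries. Trem2 was at 1.501 to 2.78 CPM in the controls and at 30.5 to 75.0 CPM after irradiation. Of 10 genes of alveolar macrophages, 3 were higher and 3 lower at 2 weeks and 4 higher and 2 lower at 6 weeks after 75 Gy, and 2 higher and 3 lower and then 5 higher after 65 Gy. Their summed level was 1349 CPM in library 3126, against 617 to 771 CPM in the other controls, 790 to 1094 CPM in the irradiated libraries of 2 weeks and 1586 to 2285 CPM in those of 6 weeks. Of 11 genes of alveolar type 2 cells, 3 were higher and 1 lower at 6 weeks after 75 Gy and 1 was higher after 65 Gy, and at 2 weeks the median log2 fold change of the list was -0.11 after 75 Gy and -0.04 after 65 Gy. The summed level of that list was 22622 to 33130 CPM in the controls and 19626 to 35393 CPM in the irradiated libraries. Of 7 genes of alveolar fibroblasts, which include cells that store lipid, 4 were lower at each time after 75 Gy, and 1 and 3 after 65 Gy. Their summed level was 3648 to 4378 CPM in the controls and 1239 to 3004 CPM in the irradiated libraries, the lowest in library 3134. Of 7 genes of fat cells, 0 passed in any of the 4 comparisons with controls. Their summed level ran from 36.4 to 188.6 CPM, with the highest in library 3129 and Adipoq between 0.33 and 10.5 CPM. At 2 weeks the sum was 108 to 116 CPM in the controls, 42.2 to 188.6 CPM after 65 Gy and 36.4 to 62.1 CPM after 75 Gy. At 6 weeks it was 45.7 to 134, 70.7 to 81.3 and 105 to 128 CPM. The median log2 fold change of the list was -2.91 and 0.88 at 2 and 6 weeks after 75 Gy, and -0.49 and -0.17 after 65 Gy. Of 12 genes of mitosis, 12 and 11 were higher at 2 weeks after 75 and 65 Gy and 8 and 6 at 6 weeks, with a summed level of 66.1 to 90.2 CPM in the controls and 111.7 to 354 CPM in the irradiated libraries. Of 10 genes of neutrophils, 4 were lower at 2 weeks at each dose, 3 at 6 weeks after 75 Gy and 1 after 65 Gy, with a summed level of 311 to 622 CPM in the controls and 113 to 308 CPM in the irradiated libraries. Library 3126 was the highest of the controls of 2 weeks. Of 6 genes of airway secretory cells, 2 were lower at each time after 75 Gy and 1 at 2 weeks after 65 Gy, with a summed level of 16605 to 21152 CPM in the controls and 6396 to 14333 CPM in the irradiated libraries. The part of these cell types and programs in the levels of the 32 genes was not tested.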

How the data were processed

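Stranded mRNA libraries (TruSeq) of mouse lung were read as pairs on a NovaSeq, and per the methods the authors trimmed reads with Trimmomatic, aligned them with HISAT2 to GRCm38.p6 and assembled them with StringTie. The authors deposited 1 table of raw read counts per gene, with no normalization. The step from StringTie to counts, and its strand setting, is not given in the sources used here.

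Here, genes were kept by the expression filter of edgeR 4.0.16 (minimum count 10, minimum total 15) in R 4.3.3, libraries were scaled by TMM, and all 6 groups were fitted in 1 quasi-likelihood model, with p-values adjusted by Benjamini-Hochberg over the 22052 genes kept. A call was an adjusted p of at most 0.05, and a DEG also had a log2 fold change of at least 1 in size. The SE was the fold change over the root of its F statistic, and intervals were 95%. The fit was tested on simulated data. DESeq2 1.42.0 and edgeR's exact test were alternatives, besides other scalings, filters and sets of libraries.

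The genes and lists were chosen with earlier results of these data known. Values in every library were given for DEGs and for the gene with the smallest p of each role. Pmvk, and the library values of Acss2, Fasn, Scd2, Elovl5, Elovl6 and Cyp51, were chosen after they were seen. Other pathway genes were named by smallest p, at most 4 per list, and markers from the first 2 of a list. Shared stretches were found by matching all 100-base pieces of a gene's transcripts to those of other genes.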

Additional observations from a re-analysis of the deposited data

How the results depend on the processing

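Among the values of the genes given in every library by the rule for named genes, over all comparisons and alternatives, 734 kept their sign and their side of the threshold, 24 lost and 9 gained a call, and 13 changed sign. When libraries of other groups were left out of the model, the number of the 32 genes past an adjusted p of 0.05 was 0 for 75 Gy at 2 weeks, 21 for 65 Gy at 6 weeks and 0 for the controls between the times. Of all genes, 5.85%, 31.3% and 0.251% passed. The controls had 7 calls by edgeR's exact test and 9 by DESeq2, against 2.97% and 4.37% of all genes in either direction. The change of the 75 Gy effect had 1 by DESeq2, against 3.21%. Without libraries 3126 and 3134 together, chosen after seeing the data, 15 genes passed at 2 weeks after 75 Gy and 14 after 65 Gy, with 1 DEG each. Of all genes then tested, 24% and 19% passed. With every gene of at least 1 count kept, 1 gene was a DEG at 2 weeks after 65 Gy. The cause was not tested in any of these.

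Leaving out 1 library at a time gave 5 to 10 calls for 75 Gy at 2 weeks (without 3127 and 3126), 10 to 16 at 6 weeks (3142 and 3141), 3 to 9 for 65 Gy at 2 weeks (3127 and 3126), and 4 to 7 at 6 weeks (3138 and 3137). It gave 0 to 3 for the controls between the times and 0 to 1 for the change of the 75 Gy effect. DEGs were 0 to 1 at 2 weeks at each dose, 1 to 2 at 6 weeks after 75 Gy and 2 in every fit at 6 weeks after 65 Gy. A group left with 1 library was assumed to vary like the other groups.

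The values that changed sign were these. For Stard4 at 6 weeks after 65 Gy the log2 fold change was 0.00255 with upper-quartile factors and 0.0066 with only the groups compared. Between the doses at 2 weeks, Me1 was at 0.00327 with the 1-count filter, 0.000978 with only the groups compared and 0.0611 without 3126 and 3134, and Scd1 was at 0.0968 without both. With 1 library left out, Srebf2 at 2 weeks after 65 Gy ran from -0.0579 to 0.00347. Between the doses at 2 weeks, Me1 ran from -0.0738 to 0.0611, Scd1 from -0.286 to 0.0967 and Mvd from -0.00757 to 0.143. The change of the 75 Gy effect for Dhcr7 ran from -0.0721 to 0.143. No paired analysis was possible because no number is shared between the libraries of different groups. The lowest count of any of the 32 genes in a library was 339.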
